A study of Caenorhabditis elegans with 60 samples.

Results

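HFPO-DA at 1 g/L was compared with the unexposed control in whole worms of Caenorhabditis elegans. The comparison holds 8 of the 60 libraries of the series, chosen by their labels alone: 4 wells at 1 g/L and 4 wells at 0 g/L. HFPO-DA, hexafluoropropylene oxide dimer acid, is a fluorinated ether carboxylic acid that serves as a processing aid for fluoropolymers. The study profiled transcription over 14 concentrations of it, up to 4 g/L, and a control, with 4 wells each. All groups were the wild-type strain N2 (Bristol), started as synchronised first-stage larvae, held for 48 h in S Medium with Escherichia coli HB101 as food, and sampled as wells of about 1000 pooled worms. The control differed from the exposed wells only in holding no HFPO-DA, so far as the labels say. For comparison, 0.5 g/L (4 libraries) and the 8 lowest concentrations, all below 0.125 g/L (32 libraries), were used as further references that hold no control library. Wells of a 12-well plate were given their concentration at random. The labels do not say whether the wells of a group trace to more than 1 worm culture. The tests therefore weigh differences against the well-to-well spread of the deposited values, which may be technical.

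Animals deal with foreign small molecules in steps. Cytochrome P450 enzymes, haem proteins that add oxygen to a substrate, act early, and UDP-glucuronosyltransferases attach a sugar that makes the product more soluble. In worms both enzyme families are large, many members sit in runs of neighbouring genes, and the intestine is a main site of their expression. Several members are transcribed at very low levels until a chemical, a metal or a pathogen induces them.

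Values are the deposited normalised signal, in which a gene without reads stands near 2.5. Recovered depth was 970896 to 1928296 reads at 1 g/L (median 1414077) and 999346 to 1914706 in the control (median 1472382). Replicate 4 at 1 g/L and replicate 1 of the control scattered most around their group means, at 1.34 and 1.36 times the median residual spread of all 60 libraries. The median of 56 sperm genes, against the control mean, was 0.73 on the log2 scale in that exposed library and −0.45 to 0.15 in the other 3. It was 0.75 in that control library and −0.49 to 0.21 in the other controls. Defining markers of intestine, body wall muscle, pharynx, neurons, germ line, oocytes, yolk and adult cuticle all had reads in all 8 libraries, as fits the label of whole body. For epidermis 4 of 5 markers were measured and 3 had reads in all 8 libraries. For sperm 28 of 29 major sperm protein genes did. The 4 libraries at 1 g/L and the 4 controls overlapped in the summed level of each of these marker groups, and 0 markers were called.

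At 1 g/L, 16 genes were higher and 1 was lower than in the control among 10293 genes tested (limma on log2(value + 1), adjusted p under 0.05). Both together are 0.165% of the genes tested, the higher ones 0.155% and the lower one 0.00972%. The 16 genes that rose include 4 neighbouring cyp-13A genes, 2 other cytochrome P450 genes, 3 UDP-glucuronosyltransferase genes, the cadmium-responsive gene cdr-1 and the lipid-binding protein gene lbp-8. Without adjustment, 344 genes (3.34%) had p under 0.05. In bulk samples of whole worms, fewer cells of a type and less RNA per cell cannot be told apart. In 16 of the 17 called genes the 4 libraries at 1 g/L lay beyond all 4 controls, the exception being cyp-33E3. Over all genes tested, 111 (1.08%) were separated in this way upward and 114 (1.11%) downward. The called genes mostly started from low levels: 12 of the 17 had a control mean under 10, as did 17.6% of all genes tested, and 3 had no read in any control. By chromosome 0 lay on I (18.4% of the genes tested), 5 on II (16.9%), 1 on III (16.9%), 3 on IV (17.7%), 7 on V (17.6%) and 1 on X (12.5%), and 4 of the 5 on II are the cyp-13A neighbours.

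**Figure D1:**
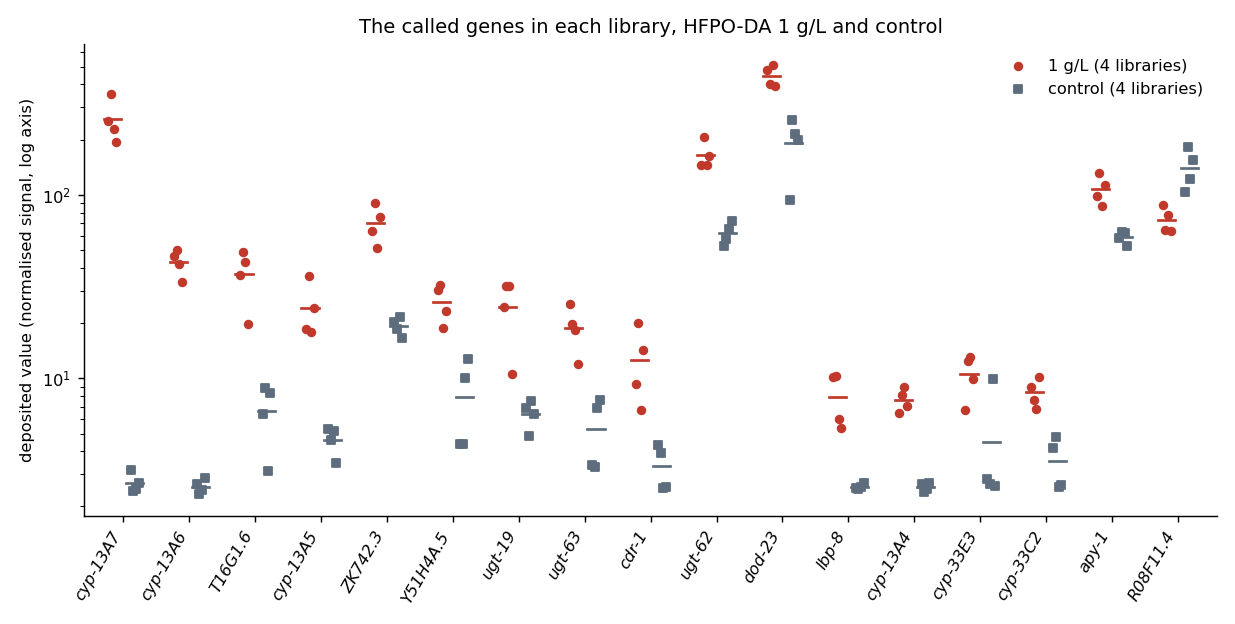
Deposited value (log axis) of the 17 called genes in each of the 4 libraries at 1 g/L (circles, left) and the 4 control libraries (squares, right), with horizontal bars at the group means. The groups are separated in every gene but cyp-33E3, where control replicate 3 stands at 9.93, and R08F11.4 is the one gene that is lower at 1 g/L.

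When the fit held only the 8 libraries compared, 6 genes were called: cyp-13A7, cyp-13A6, cyp-13A5, ZK742.3, ugt-62 and T16G1.6. A minimum mean of 20 left 6697 genes to test and 9 calls.

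**Figure D2:**
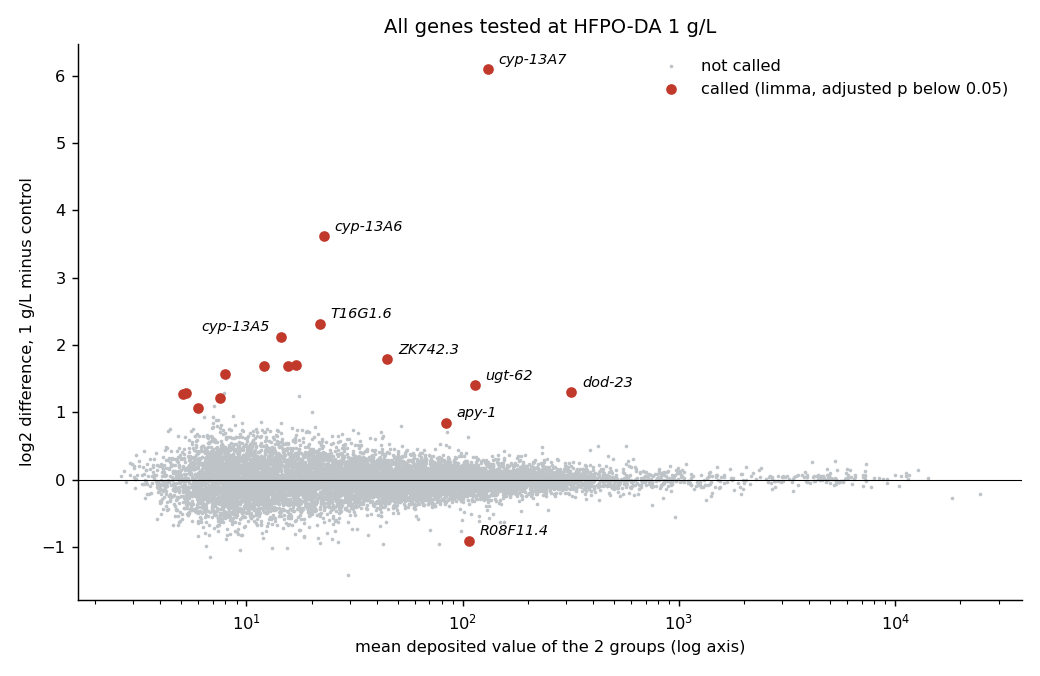
Log2 difference, 1 g/L minus control, of each of the 10293 genes tested against the mean deposited value of both groups (log axis), with the 17 called genes in red. Most genes lie close to 0, with a 5th percentile of −0.38 and a 95th of 0.37, and cyp-13A7 stands apart at 6.10.

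The largest differences were those of cyp-13A7 and cyp-13A6. The cyp-13A genes encode cytochrome P450 enzymes, and 5 of them were measured, all on chromosome II (WBcel235). The gene cyp-13A7 (CELE_T10B9.10, 9803620 to 9805513) had values of 253, 355, 230 and 193 at 1 g/L, against 3.17, 2.43, 2.51 and 2.69 in the control. These values rest on 979 reads at 1 g/L and 1 read in the control. Every exposed library was thus far above a control level at which the transcript was barely seen. The log2 difference was 6.10 ± 0.22 (SE, limma adjusted p = 1.43e-29), and reads over size factors gave a ratio of 983 (counting interval 176 to 38875).

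Next to it, cyp-13A6 (CELE_T10B9.3, 9800758 to 9802821) had 46.2, 50.2, 42.1 and 33.6 at 1 g/L, against 2.64, 2.33, 2.47 and 2.84 in the control. There were 159 reads in the exposed libraries and 0 in the controls. With 3 reads set in place of the 0 the ratio per size factor was 53.2, and the counting interval began at 42.8. The groups lay far apart and the exposed wells were close to each other (log2 difference 3.61 ± 0.19, limma adjusted p = 3.67e-22). Then follows cyp-13A5 (CELE_T10B9.2, 9798277 to 9800362), which had 18.7, 36.2, 17.8 and 24.3 at 1 g/L, against 5.28, 4.63, 5.14 and 3.44 in the control. Here replicate 2 was the highest of the exposed libraries, and the log2 difference was 2.12 ± 0.27 (limma adjusted p = 3.05e-07). The gene cyp-13A4 (CELE_T10B9.1, 9795756 to 9797740) had 6.47, 8.09, 8.92 and 7.10 at 1 g/L, against 2.64, 2.41, 2.49 and 2.6999 in the control. It was read 22 times at 1 g/L and 0 times in the control (log2 difference 1.27 ± 0.17, limma adjusted p = 2.24e-06). The ratio was 7.37 with 3 reads set in place of the 0, and the counting interval began at 5.50.

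The fifth measured gene, cyp-13A2 (CELE_T10B9.7, 9783384 to 9787629), lies farther along the chromosome from these 4. Its values were 8.61, 2.89, 6.39 and 6.86 at 1 g/L, against 5.10, 3.43, 6.63 and 3.92 in the control. The groups overlapped, and the log2 difference of 0.27 had an interval of −0.32 to 0.87. Thus 4 of the 5 measured cyp-13A genes rose and 1 was not called, with a median log2 difference of 2.12, beside −0.01 over all genes tested. The 4 genes are neighbours of 1 family, and their sequences were not compared. The authors' counting could have split or shared reads among them, so the level of each single gene is uncertain.

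Outside this cluster the P450 family was mostly near or below 0. Of 29 other measured cytochrome P450 genes 2 rose and 0 fell, 9 had a log2 difference above 0, and the median was −0.17. The first of the 2, cyp-33C2 (CELE_C45H4.17, chromosome V), had 8.95, 7.65, 6.80 and 10.1 at 1 g/L, against 4.19, 4.77, 2.54 and 2.62 in the control. These levels come from 22 reads at 1 g/L and 5 in the control, so both are low (log2 difference 1.07 ± 0.24, limma adjusted p = 0.0338). The second, cyp-33E3 (CELE_F42A9.4, chromosome IV), had 6.73, 12.4, 13.1 and 9.93 at 1 g/L, against 2.83, 2.66, 9.93 and 2.59 in the control. Control replicate 3 reached the exposed range, while the other 3 controls were near the level of no reads (log2 difference 1.21 ± 0.28, limma adjusted p = 0.0427). Neither call was firm: cyp-33C2 was called in 6 of 20 alternatives, with limma adjusted p of 0.0186 to 0.999, and cyp-33E3 in 7 of 20, with limma adjusted p of 0.000262 to 1.

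The UDP-glucuronosyltransferase family was also split, with a few members that rose and a family median at 0. Of 37 measured ugt genes 3 rose, 0 fell and 18 had a log2 difference above 0, with a median of −0.01. The most abundant of the 3, ugt-62 (CELE_M88.1, chromosome III, 4537281 to 4540623), had 145, 207, 146 and 163 at 1 g/L, against 52.9, 57.3, 64.8 and 71.8 in the control. This rise rests on 621 reads at 1 g/L and 220 in the control, a ratio of 2.83 (counting interval 2.43 to 3.32). The lowest exposed library was above the highest control (log2 difference 1.40 ± 0.18, limma adjusted p = 3.08e-07).

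The gene ugt-19 (CELE_K08B4.3, chromosome IV, 6076686 to 6079952) had 24.5, 31.7, 31.7 and 10.5 at 1 g/L, against 6.86, 4.86, 7.50 and 6.35 in the control. Replicate 4 was the lowest exposed library and still above all controls (log2 difference 1.69 ± 0.27, limma adjusted p = 8.53e-05). The gene ugt-63 (CELE_C04F5.7, chromosome V, 5108180 to 5110791) had 25.5, 19.7, 18.4 and 11.9 at 1 g/L, against 3.38, 3.30, 6.91 and 7.63 in the control. It was separated as well, with the controls in a low and a high pair (log2 difference 1.69 ± 0.31, limma adjusted p = 0.0011), but on reads over the size factor it lost its call, with a log2 difference of 2.17 ± 0.54 (limma adjusted p = 0.119). The list also holds ugt-44 (CELE_F01D4.2), which had 59.9, 48.3, 65.8 and 38.0 at 1 g/L, against 94.4, 108, 85.4 and 67.2 in the control. All 4 exposed libraries were below all controls, without a call (log2 difference −0.74 ± 0.28, limma adjusted p = 1).

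A metal-response gene and a lipid carrier rose beside the detoxifying enzymes. The gene cdr-1 (CELE_F35E8.11, chromosome V, 15921309 to 15922820), known for its induction by cadmium, had 9.32, 20.0, 6.75 and 14.3 at 1 g/L, against 4.34, 3.90, 2.53 and 2.55 in the control. The exposed libraries differed widely among themselves, yet none reached down to the controls (log2 difference 1.57 ± 0.23, limma adjusted p = 5.71e-06). It was the one called gene among 14 metal-response genes, whose median was −0.03. The gene lbp-8 (CELE_T22G5.6, chromosome V, 13890679 to 13891364), which encodes a lysosomal lipid chaperone, had 10.1, 10.3, 6.01 and 5.37 at 1 g/L, against 2.51, 2.49, 2.55 and 2.69 in the control. It had 22 reads at 1 g/L and 0 in the control (log2 difference 1.28 ± 0.24, limma adjusted p = 0.00122). With 3 reads set in place of the 0 the ratio was 7.37, and the counting interval began at 5.50. The gene was not read in any control. It was the one called gene among 18 lipase and lipid-binding protein genes, whose median was −0.12.

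A further 5 genes that rose belong to none of the lists. The largest change among them was that of T16G1.6 (CELE_T16G1.6, chromosome V, 12935538 to 12937174), with 36.5, 49.1, 42.8 and 19.9 at 1 g/L, against 6.35, 8.91, 3.12 and 8.28 in the control. The groups did not overlap, although replicate 4 at 1 g/L stood lower than the other exposed libraries (log2 difference 2.32 ± 0.33, limma adjusted p = 4.49e-06). ZK742.3 (CELE_ZK742.3, chromosome V, 7808367 to 7809912) had 63.95, 90.03, 51.5 and 75.4 at 1 g/L, against 20.4, 18.7, 21.5 and 16.5 in the control. Its controls were tightly grouped, and the read ratio was 3.93, with a counting interval of 2.99 to 5.23 (log2 difference 1.79 ± 0.20, limma adjusted p = 6.23e-09). Y51H4A.5 (CELE_Y51H4A.5, chromosome IV, 16522529 to 16526138) had 30.1, 32.3, 18.8 and 23.4 at 1 g/L, against 4.39, 4.41, 10.0 and 12.7 in the control. It was separated by a narrower gap (log2 difference 1.71 ± 0.29, limma adjusted p = 0.000189).

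The most abundant gene that rose was dod-23 (CELE_F49E12.2, chromosome II, 8398161 to 8399164), named for its place downstream of the transcription factor daf-16. It had 478, 400, 508 and 391.7 at 1 g/L, against 93.5, 257, 215 and 199 in the control. The exposed wells were all above the highest control, and control replicate 1 stood far below the other controls (log2 difference 1.30 ± 0.26, limma adjusted p = 0.00561). Without control replicate 1 the log2 difference was 0.99 and the call was lost (limma adjusted p = 0.195). The gene apy-1 (CELE_F08C6.6, chromosome X, 7568141 to 7569722) encodes an apyrase, an enzyme that hydrolyses nucleotides in the secretory pathway. Its values were 98.3, 132, 87.4 and 113 at 1 g/L, against 58.1, 62.7, 61.98 and 52.7 in the control. The change was smaller, and the exposed wells (SD 19.4) were more spread than the controls (SD 4.57; log2 difference 0.85 ± 0.17, limma adjusted p = 0.00695). Without replicate 2 at 1 g/L (limma adjusted p = 0.116) or without control replicate 4 (limma adjusted p = 0.0663) it lost its call.

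The single gene that fell was R08F11.4 (CELE_R08F11.4, chromosome V, 3803839 to 3805527). It had 87.9, 64.2, 77.5 and 63.2 at 1 g/L, against 103, 182, 122 and 154 in the control. The highest exposed library was below the lowest control, with 259 reads at 1 g/L against 510 in the control (log2 difference −0.91 ± 0.19, limma adjusted p = 0.00671). The call was lost without replicate 2 or 4 at 1 g/L, without control replicate 2 or 4, and in voom on the recovered reads, with limma adjusted p of 0.0581 to 0.146.

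Sample numbers run from 1 to 60, and in runs of 12 numbers 3 of the 5 runs held a library at 1 g/L and a control. Values within these runs rest on few libraries and carry no test. For cyp-13A7 the 3 log2 differences were 6.42, 6.07 and 5.79, and for R08F11.4 they were −0.67, −1.22 and −0.94. For cyp-33E3, the called gene whose groups overlap, they were 1.80, 1.95 and 0.00 (−0.0006).

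A comparison with the 32 libraries of the 8 lowest concentrations asked which differences do not rest on the 4 controls. In it 21 genes were higher and 6 lower at 1 g/L, 27 in all (0.262% of the genes tested, 0.204% higher and 0.0583% lower). Without adjustment 530 genes (5.15%) had p under 0.05. The 4 libraries at 1 g/L enter both comparisons, and with that in common the 17 genes called against the control were all among the 27. Against the 32 libraries the log2 difference was 6.12 ± 0.17 for cyp-13A7, 3.57 ± 0.14 for cyp-13A6 and 1.16 ± 0.20 for dod-23 (limma adjusted p = 3.96e-36, 4.67e-28 and 0.00014). For cyp-33E3 it was 1.18 ± 0.21 (limma adjusted p = 0.000406) and for R08F11.4 −0.92 ± 0.14 (limma adjusted p = 1.37e-05). The 32 libraries ranged from 2.31 to 5.10 in cyp-13A7, so that none came near the lowest exposed library at 193.

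Of the 10 genes called against the 8 lowest concentrations alone, 5 were higher at 1 g/L. The infection response gene irg-3 had 125.5, 143, 112 and 136 at 1 g/L, against a lowest of 59.1, a median of 76.2 and a highest of 128 over the 32 libraries. It was among the higher values of the 32 in each exposed well (log2 difference 0.74 ± 0.13, limma adjusted p = 0.000167), and the 4 controls lay at 76.6 to 86.4. The gene vem-1, which encodes a membrane protein of the progesterone-receptor type, had 94.2, 103.6, 73.7 and 98.1 at 1 g/L, against 33.9 to 93.3 (median 63.0) over the 32 libraries (log2 difference 0.58 ± 0.12, limma adjusted p = 0.00701). The other 3, chosen after their values were seen, were ugt-61 (log2 difference 1.46), the P450 gene cyp-34A9 (1.15) and F58B4.5 (0.95), with limma adjusted p of 2.81e-05, 0.00302 and 0.0266. With ugt-61 and cyp-34A9, 4 of 37 ugt genes and 3 of 29 other P450 genes rose against the 8 lowest concentrations.

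The other 5 were lower at 1 g/L. The gene dhs-26, a short-chain dehydrogenase, had 36.0, 18.5, 26.4 and 20.6 at 1 g/L, against a lowest of 21.2, a median of 53.7 and a highest of 82.2 over the 32 libraries (log2 difference −1.08 ± 0.20, limma adjusted p = 0.000875). The 4 controls spread from 26.8 to 64.3 and overlapped the exposed wells. The gene rhy-1, a regulator of the hypoxia-inducible factor, had 26.9, 9.57, 9.45 and 9.02 at 1 g/L, against 13.6 to 41.0 (median 24.0) over the 32 libraries. Replicate 1 lay within the range of the 32 libraries and the other 3 exposed wells were below all 32 (log2 difference −0.92 ± 0.20, limma adjusted p = 0.013). Chosen after their values were seen, clec-52, a C-type lectin gene, islo-1 and T05E7.1 had log2 differences of −0.93, −1.002 and −1.19 (limma adjusted p = 0.00494, 0.0377 and 0.0397). Of these 10 calls, that of irg-3 held in 17 of 17 alternatives and that of ugt-61 in 16 of 16. The other higher ones held in 13 of 16 for cyp-34A9, 13 of 17 for F58B4.5 and 12 of 17 for vem-1. The lower ones held in 15 of 17 for dhs-26, 12 of 16 for clec-52, 11 of 17 for rhy-1, 8 of 16 for islo-1 and 8 of 17 for T05E7.1. Single exposed libraries decided many of them: 4 of the 10 calls were lost without replicate 1 at 1 g/L, 7 without replicate 2, 3 without replicate 3 and 5 without replicate 4. The highest limma adjusted p over the alternatives was 0.0563 for dhs-26, 0.134 for cyp-34A9, 0.161 for vem-1, 0.336 for clec-52, 0.468 for rhy-1, 0.559 for islo-1, 0.589 for F58B4.5 and 1 for T05E7.1.

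**Figure D3:**
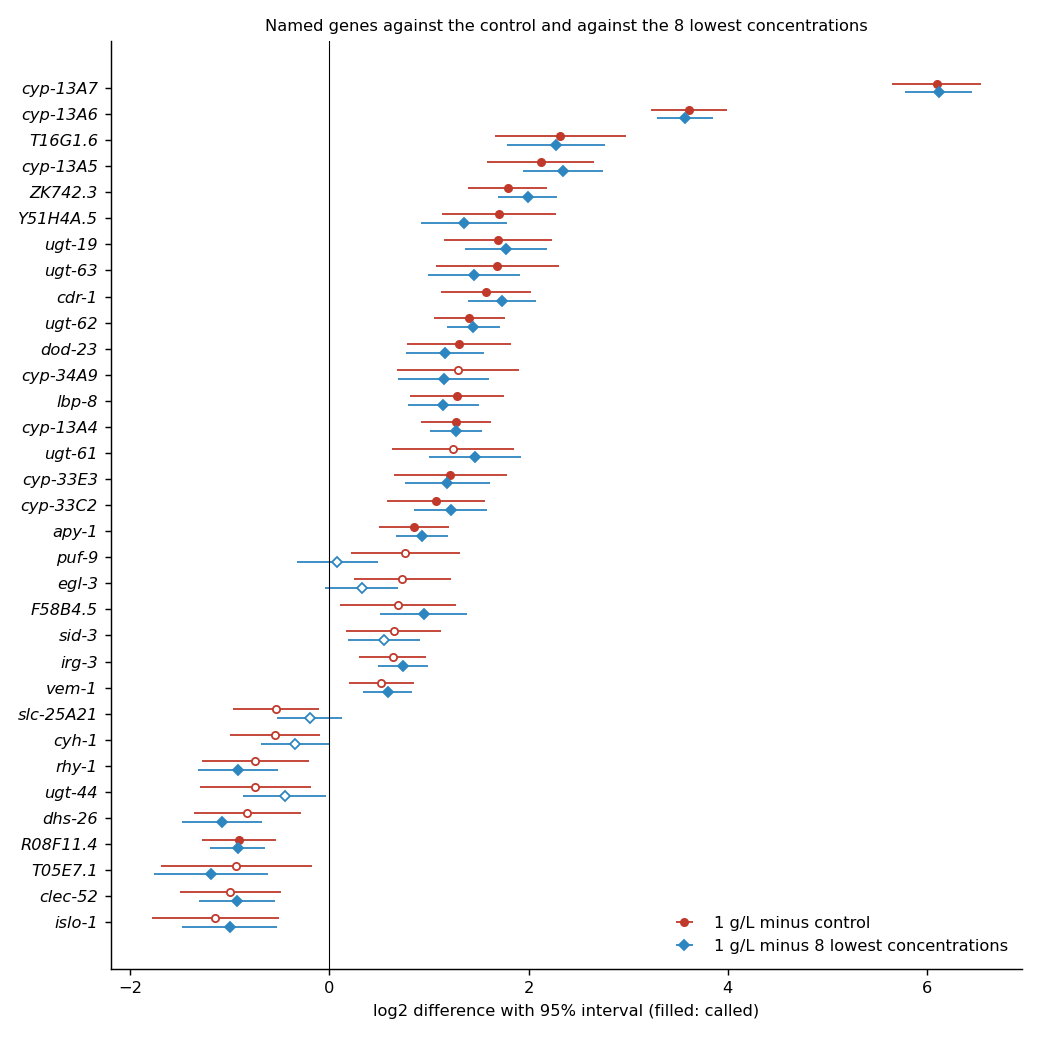
Log2 difference with its 95% interval of the genes called in either comparison and of 6 uncalled genes, for 1 g/L minus control (circles) and 1 g/L minus the 8 lowest concentrations (diamonds). Filled symbols were called. Both comparisons share the libraries at 1 g/L, and the intervals are narrower against the 32 libraries (for cyp-13A7, 5.78 to 6.45 beside 5.65 to 6.54).

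The step from the next lower concentration was tested directly. At 1 g/L 7 genes were higher than at 0.5 g/L (0.068% of the genes tested) and 0 were lower (limma), while 542 genes (5.27%) had an unadjusted p under 0.05 in either direction. The 7 were cyp-13A7, cyp-13A6, cyp-13A5, cyp-13A4, cdr-1, ugt-62 and ZK742.3. The gene cyp-13A4 averaged 7.65 ± 1.08 at 1 g/L and 2.84 ± 0.53 at 0.5 g/L (SD, n = 4 each), where it stood near the level of no reads (log2 difference 1.17 ± 0.17, limma adjusted p = 3.96e-05). In the same way cdr-1 averaged 12.6 ± 5.8 at 1 g/L and 4.04 ± 0.84 at 0.5 g/L (SD, n = 4 each; log2 difference 1.34 ± 0.23, limma adjusted p = 0.000514). By contrast cyp-13A7 was already at 83.7 ± 17.3 at 0.5 g/L (SD, n = 4), and the step to 1 g/L was a log2 difference of 1.601 ± 0.22 (limma adjusted p = 9.84e-06). The gene ugt-62 averaged 165 ± 29 at 1 g/L and 90.2 ± 6.4 at 0.5 g/L (SD, n = 4 each; log2 difference 0.85 ± 0.18, limma adjusted p = 0.0226).

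For the other 10 genes called against the control the step was not called after adjustment, while the unadjusted 95% interval of its log2 difference lay on 1 side of 0 in 9 of them. The intervals were 0.46 to 1.44 for cyp-33C2, 0.53 to 1.62 for ugt-19, 0.48 to 1.72 for ugt-63, 0.39 to 1.08 for apy-1 and 0.29 to 1.24 for lbp-8. They were 0.17 to 1.49 for T16G1.6, 0.19 to 1.33 for Y51H4A.5, 0.25 to 1.38 for cyp-33E3 and −0.75 to 0.00 (−0.00463) for R08F11.4. The exception was dod-23, at −0.07 to 0.98. Fewer of the 7 calls held elsewhere: 4 without replicate 2 or 4 at 1 g/L or without replicate 1 or 4 at 0.5 g/L. When only these groups were fitted 3 held, and on reads over the size factor 2 held. Those 2 were cyp-13A6 and cyp-13A4, so the step of cyp-13A7 was not called on reads. Over the alternatives cyp-13A7 held in 18 of 20 (highest limma adjusted p = 0.265) and cyp-13A6 in 19 of 20. The step of cyp-13A4 held in 18 of 19, cdr-1 in 15 of 19, ugt-62 and ZK742.3 in 13 of 20 each and cyp-13A5 in 10 of 19.

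Along the concentration series the called genes reached 1 g/L by different courses. At 0.5, 2 and 4 g/L, 2, 50 and 2932 of all genes were called against the same controls (0.0194%, 0.486% and 28.5%). In cyp-13A7 the mean was 2.69 ± 0.21 at the highest of the 8 lowest concentrations, 6.19 ± 3.65 at 0.125 g/L, 15.2 ± 4.6 at 0.25 g/L, 83.7 ± 17.3 at 0.5 g/L, 258 ± 70 at 1 g/L, 592 ± 61 at 2 g/L and 1144 ± 108 at 4 g/L (SD, n = 4 each). It thus climbed over 6 steps without a reversal of the means. In cyp-13A6 the mean was 2.90 ± 0.33 at 0.125 g/L, 5.22 ± 1.58 at 0.25 g/L, 12.8 ± 2.7 at 0.5 g/L, 43.0 ± 7.1 at 1 g/L, 181 ± 50 at 2 g/L and 526 ± 106 at 4 g/L (SD, n = 4 each). In cyp-13A4 the mean stayed at 2.47 to 2.84 from 0.125 to 0.5 g/L and was 7.65 at 1 g/L, 44.7 at 2 g/L and 166 at 4 g/L.

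In 16 of the 17 called genes the mean lay farther from the control at 2 g/L, and again at 4 g/L, than at 1 g/L. The exception was dod-23, with means of 324 ± 32 at 0.5 g/L, 445 ± 57 at 1 g/L, 536 ± 109 at 2 g/L and 326 ± 189 at 4 g/L (SD, n = 4 each). At 4 g/L its 4 libraries spread from 134 to 500, so that the highest concentration overlapped both the control and the libraries at 1 g/L. The mean of R08F11.4 was 138 ± 19 at 0.25 g/L, 95.6 ± 16.5 at 0.5 g/L, 73.2 ± 11.8 at 1 g/L, 46.8 ± 7.4 at 2 g/L and 36.6 ± 8.4 at 4 g/L (SD, n = 4 each). Among the genes called against the 8 lowest concentrations alone, the means of islo-1, rhy-1 and clec-52 were not lower at 2 and 4 g/L than at 1 g/L. The mean of islo-1 was 3.78 at 1 g/L, 9.02 at 2 g/L and 9.59 at 4 g/L, that of rhy-1 was 13.7, 16.8 and 17.2, and that of clec-52 was 4.03, 4.36 and 5.38. The means of the other 2 lower genes went on down, to 13.5 at 2 g/L and 3.29 at 4 g/L for dhs-26, with 25.4 at 1 g/L, and to 14.8 and 12.3 for T05E7.1, with 18.3 at 1 g/L.

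**Figure D4:**
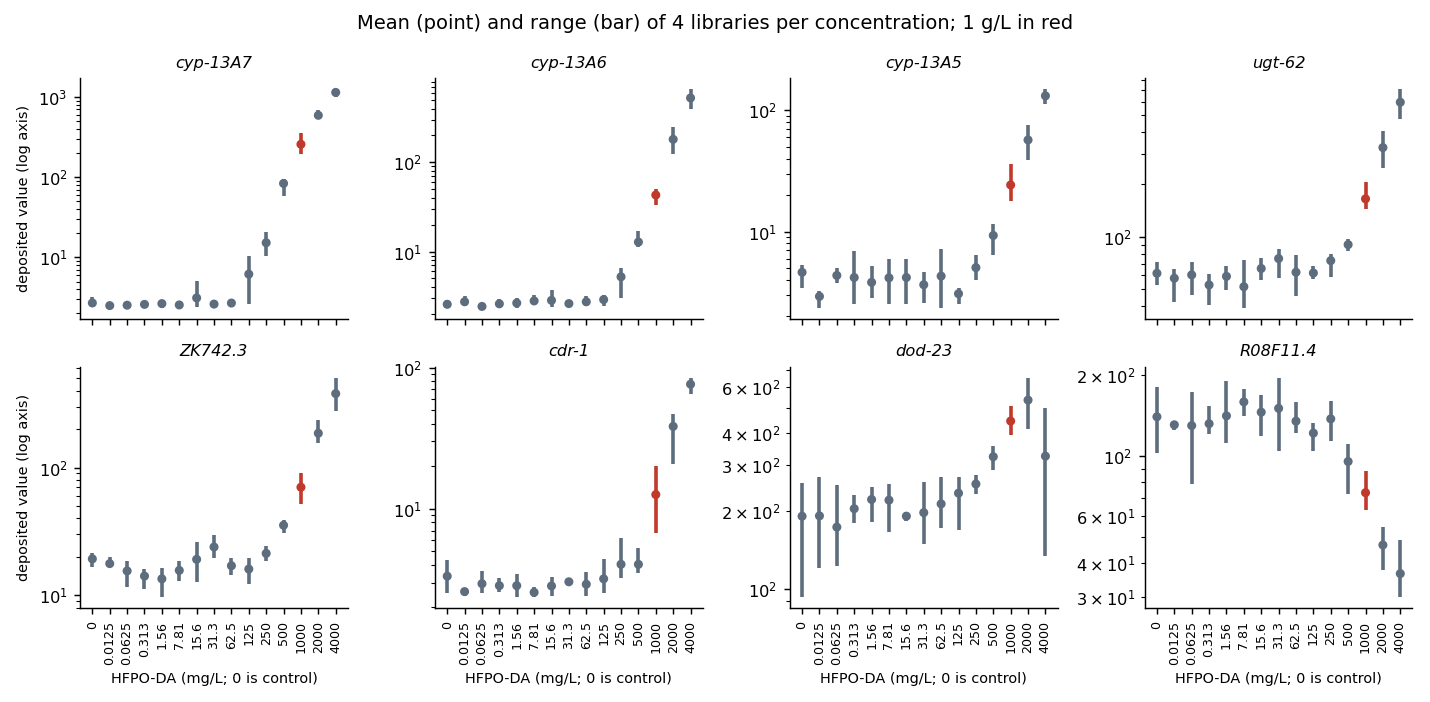
Mean (point) and range (bar) of the deposited value in 4 libraries at each of the 15 concentrations, from the control (0) to 4000 mg/L, for 8 genes called at 1 g/L (1 g/L in red), with a log vertical axis and evenly spaced concentrations. The cyp-13A genes, ugt-62, ZK742.3 and cdr-1 go on climbing above 1 g/L, R08F11.4 goes on falling, and dod-23 is highest at 2 g/L with a mean of 536.

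Of 38 gene lists 33 had no called member at 1 g/L. With 0.165% of all genes called, a list of this kind would mostly hold none, so nothing is read from these counts of 0. The medians of 36 lists lay between −0.25 and 0.25 on the log2 scale, beside −0.01 over all genes tested. The exceptions among the medians were the cyp-13A genes (2.12) and the 5 flavin monooxygenases, enzymes that add oxygen to nitrogen or sulphur (−0.32, with 2 of 5 above 0). By library the median of the flavin monooxygenases was −0.32, 0.37, −0.13 and −0.55 at 1 g/L and −0.34, 0.49, 0.12 and 0.08 in the control, so the groups overlapped. Among other genes of foreign-compound metabolism 0 of 27 glutathione transferases, 0 of 38 ABC transporters and 0 of 27 short-chain dehydrogenases were called, with medians of −0.10, 0.01 and −0.15. None of 89 nuclear hormone receptors, ligand-regulated transcription factors, was called (median −0.02), nor any of 19 regulators of lipid and foreign-compound genes (median −0.10), which include skn-1 (log2 difference 0.09 ± 0.17) and mdt-15 (0.08 ± 0.17).

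The medians of stress and energy genes were near 0. They were −0.01 for 16 heat shock genes, 0.01 for 18 genes of endoplasmic reticulum stress, −0.07 for 21 antioxidant genes and 0.02 for 16 osmotic stress genes. Among abundant members, the chaperone gene hsp-1 differed by 0.00 ± 0.13 (−0.00123), the superoxide dismutase gene sod-1 by −0.12 ± 0.11 and the chaperone gene crt-1 by −0.05 ± 0.17. Of 32 genes of fatty acid synthesis, 54 of fatty acid oxidation and 39 of the respiratory chain and ATP synthase 0 were called, with medians of 0.05, 0.02 and −0.03. The desaturase gene fat-2 differed by 0.13 ± 0.14 and the ATP synthase gene atp-2 by 0.04 ± 0.13.

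Genes of tissues and of the germ line, several of which differed by more at higher concentrations, had medians near 0 at 1 g/L against the control. The median of 97 cuticle collagens was −0.06 at 0.5 g/L, 0.11 at 1 g/L, 0.39 at 2 g/L and 1.37 at 4 g/L, and 0 of the 97 were called at 1 g/L. By library this median was 0.02, 0.09, −0.21 and 0.55 at 1 g/L and 0.35, −0.36, 0.07 and −0.03 in the control, so the difference at 1 g/L was within the spread of the wells. The 6 vitellogenins, yolk proteins, had a median of 0.05 at 1 g/L and −1.18 at 4 g/L, and vit-2 differed by 0.02 ± 0.22 at 1 g/L. For 56 sperm genes, 32 oocyte and eggshell genes and 28 germ line genes the medians at 1 g/L were 0.04, 0.05 and −0.04, with 0 called. Against the 8 lowest concentrations they were 0.28, −0.02 and −0.04, and against 0.5 g/L 0.36, −0.16 and −0.13. By library the sperm median ran from −0.45 to 0.73 at 1 g/L and from −0.49 to 0.75 in the control, so the groups overlapped. For 30 proteasome subunits the median was −0.04 at 1 g/L, −0.16 at 2 g/L and −0.37 at 4 g/L. The median of 17 intestine markers was 0.18 at 1 g/L, with 11 of 17 above 0 and 0 called, and the actin gene act-5 of the intestinal brush border differed by 0.23 ± 0.20.

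**Figure D5:**
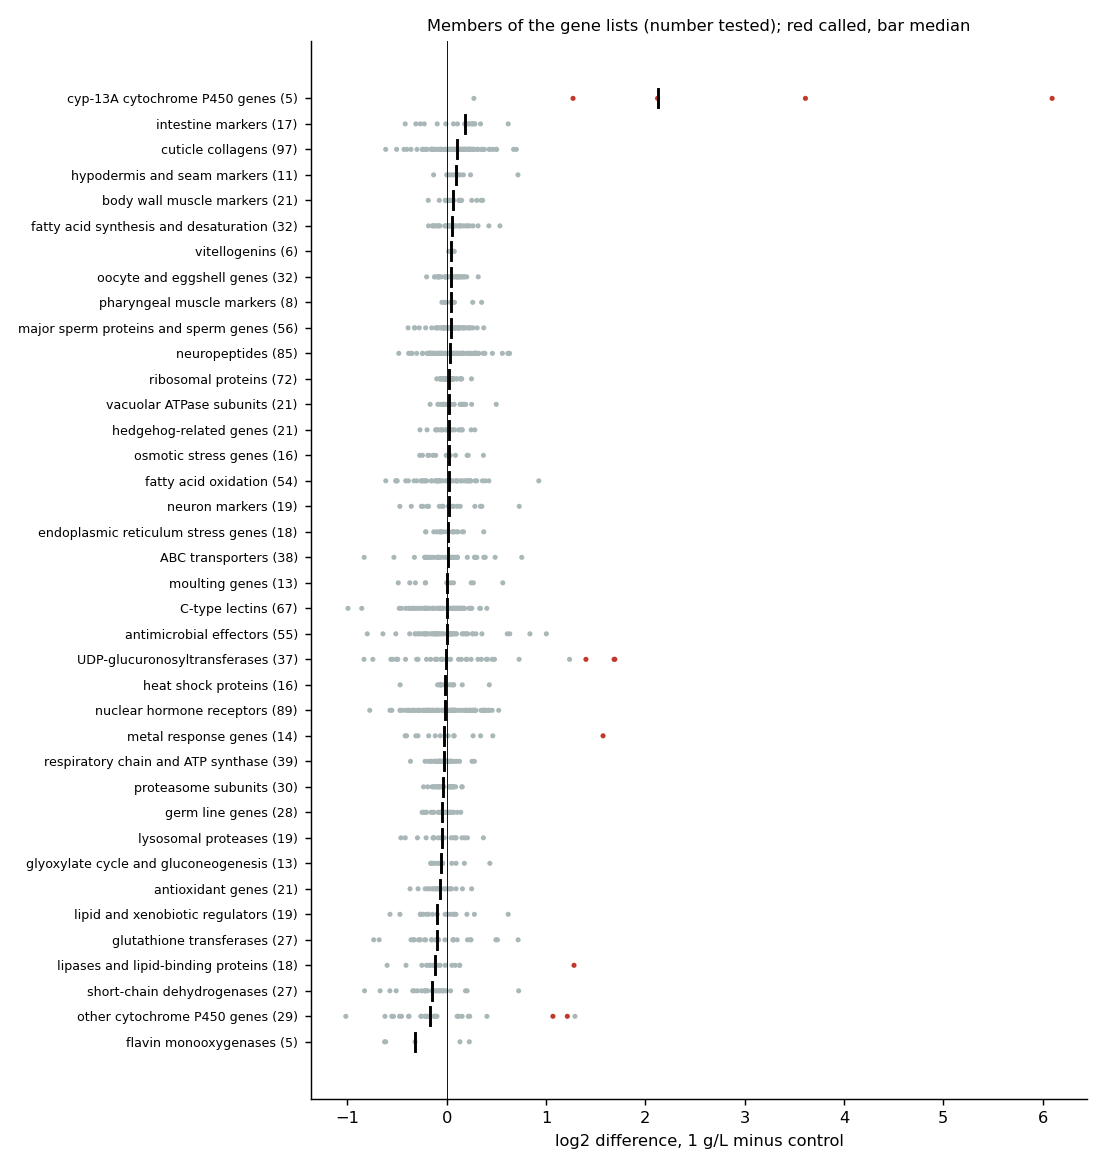
Log2 difference, 1 g/L minus control, of each measured member of the 38 gene lists (points, red where called), with the median of each list as a bar and the number of members tested in brackets. Called members are seen in the cyp-13A, other cytochrome P450, UDP-glucuronosyltransferase, metal response and lipase and lipid-binding lists. The medians of 36 lists lie between −0.25 and 0.25, and those of the cyp-13A genes (2.12) and the flavin monooxygenases (−0.32) lie outside.

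Among genes called in neither comparison, 6 named genes with a mean of at least 20 showed the largest separated differences. The proprotein convertase gene egl-3, which processes neuropeptides, had 40.2, 32.8, 40.2 and 42.1 at 1 g/L, against 27.3, 26.3, 23.7 and 16.1 in the control (log2 difference 0.73 ± 0.24, limma adjusted p = 1). The RNA-binding protein gene puf-9 differed by 0.76 ± 0.27 and the kinase gene sid-3 by 0.64 ± 0.24. On the lower side, ugt-44 has been given above, cyh-1 differed by −0.55 ± 0.23 and slc-25A21 by −0.53 ± 0.21. These 6 did not pass the test, and against the 8 lowest concentrations puf-9 differed by 0.08 ± 0.20 and slc-25A21 by −0.20 ± 0.16.

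The precision of a comparison of 4 with 4 libraries was limited. Between libraries of the same group the dispersion of reads was 2.95 to 6.43 times sampling noise. The median SE was 0.23 against the control, a 95% interval of ± 0.46 on the log2 scale, and 0.17 against the 8 lowest concentrations. For the 6697 genes with a mean of at least 20 it was 0.19 against the control, and for the 3596 genes below that 0.31. In a simulated table of 10272 genes the test against the control called 11 of 67 genes changed 1.5-fold (16.4%), 41 of 67 changed 2-fold (61.2%) and 57 of 66 changed 4-fold (86.4%). It also called 5 of 10072 unchanged genes. The simulated spread came from the controls and the 8 lowest concentrations, and the replicate-number adjustment of the deposited values was not simulated. Changed genes were drawn only from those with a scaled mean above 2 reads, so these shares do not cover genes almost without reads. More genes were called there than the 17 in the data, which loosens the adjusted threshold, so these shares may overstate sensitivity. Even in that setting a change of 1.5-fold in a single gene was mostly not called with this number of libraries.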

How the data were processed

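Polyadenylated RNA of whole worms was sequenced at shallow depth, 1 library per well. The deposited values are a signal per gene, normalised and on a linear scale. Per the submitters' processing notes, the tools were UMI-tools 1.1.2, STAR 2.7.10a, Trimmomatic 0.39, edgeR 3.36.0 and HTSeq 2.0.1, with the build WBcel235, in an order not given there. In the table a value v obeys v = 1 + f(1 + s), where s is the scaled number of reads and f, between 0.445 and 3.18, is common to all libraries of 1 replicate number for 1 gene. Solving for it gave whole reads for 100% of 617880 values within 0.0001 reads, with a count of 0 held as 0.5. Differences between replicate numbers had thus been adjusted before deposit. The main fit holds no term for this adjustment, so its SEs may be too small.

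Genes with a value of at least 5 in at least 4 libraries were tested as log2(value + 1), 10293 of 10298, so folds of genes with few reads are understated. A single fit of limma 3.58.1 (R 4.3.3) with an intensity trend held 15 group means over all 60 libraries. Two-sided p-values were adjusted over all genes tested (Benjamini-Hochberg), and a gene was called below 0.05 whatever its fold. The fit was tested on simulated tables. Read ratios pool the 4 libraries of a group over their size factors, with exact binomial 95% intervals. Where the control had 0 reads, 3 reads were set in their place, which gives a ratio and not a limit. The intervals cover counting error only. Gene positions come from the WBcel235 annotation, which matched 10294 identifiers. Python 3.11.15 with numpy 2.4.6, pandas 2.3.3, scipy 1.17.1 and matplotlib 3.10.9 made the tables and plots.

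The comparison, the 38 gene lists and the rule for named genes were chosen with earlier results of these data known. The rule names every gene called against the control and every measured cyp-13A gene. In each list it names at most 3 called members, or its 2 members of highest mean where none was called. It adds up to 6 rising and 6 falling genes called against the 8 lowest concentrations alone, and the 3 rising and 3 falling uncalled genes with the largest separated differences, each with a letter-number name and a mean of at least 20. Not every gene that the rule names has its values given. Alternatives changed the pseudocount (0.25 or 5), the filter (none, or a mean of at least 20), the scaling (median ratio or quantile), the model (replicate block, sample-number term, compared groups alone, voom) and the libraries. Fits on reads over the size factor, and a fit without 2 libraries of large spread, were added after seeing the data. No pair of libraries within a group agreed within sampling noise (lowest dispersion 2.95 times that noise).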

Additional observations from a re-analysis of the deposited data

Results flagged for a closer look

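In 3 of the 56 sets of 4 libraries examined, the control and the 1 g/L wells of 28 genes called in either comparison or measured in the cyp-13A cluster, 1 library lay far from the other 3, and chance alone does this in about 1 of 20 sets. In rhy-1, replicate 1 at 1 g/L stood at 26.9, against 9.02 to 9.57 in the other 3 exposed wells. In cyp-33E3, control replicate 3 stood at 9.93, against 2.59 to 2.83 in the other controls. In cyp-34A9, control replicate 2 stood at 6.99, against 2.99 to 3.29 in the other controls, and without it the log2 difference between 1 g/L and control was 1.53, past the threshold that it missed with all 4 controls (limma adjusted p = 0.0514). No explanation was tested for these libraries.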

How the results depend on the processing

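Against the control 15 to 17 genes were called under both other pseudocounts, no filter, median ratio and quantile scaling, the sample-number term and reads over the size factor, and 14 in voom on the recovered reads. A minimum mean of 20 gave 9 calls against the control, 14 against the 8 lowest concentrations and 4 against 0.5 g/L, and 2 lists with a called member, with fewer genes tested. Fits of the compared groups alone gave 6 calls against the control, 3 against 0.5 g/L and 2 lists with a called member. Against 0.5 g/L reads over the size factor gave 2 calls, and 1 with the sample-number term. The cause was not tested. Leaving out 1 library gave 13 to 17 calls against the control, 20 to 33 against the 8 lowest concentrations and 4 to 10 against 0.5 g/L. Without replicate 4 at 1 g/L and control replicate 1 together 14 genes were called against the control and 22 against the 8 lowest concentrations. No called value changed sign. In some alternatives 3 genes called in the main fit against the 8 lowest concentrations alone were called against the control: cyp-34A9, ugt-61 and islo-1. For islo-1 the limma adjusted p was 0.0242 on reads over the size factor and 0.0162 there with the sample-number term. Of the 17 genes 6 kept their call in every alternative that tested them, and 11 in every such alternative but the fit of the 8 libraries alone. Medians of gene lists moved by more than the spread of the 4 exposed libraries in 10 of 418 list and setting pairs.

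No source says that replicate numbers pair the wells. Same-numbered libraries at 1 g/L and control had correlations of −0.37, −0.17, −0.33 and −0.42 in their deviations from the group means, but differences between replicate numbers were adjusted before deposit, so these do not show whether wells were paired. With a replicate block 15 genes were called against the control, 25 against the 8 lowest concentrations and 7 against 0.5 g/L. The calls against the control that it lost were cyp-33C2 (limma adjusted p = 0.0585) and cyp-33E3 (limma adjusted p = 0.0649). The planned edgeR and DESeq2 fits were not run, since the deposited signal is not a count. Genes with few reads were measured least precisely: the median SE was 0.31 below a mean of 20 and 0.19 from 20 up.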

Other observations

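Gene groups of development, defence and signalling that are not described above had 0 called members at 1 g/L against the control, where 0.165% of all genes were called. Among secreted defence proteins, the median log2 difference was 0.00 (0.0024) for 55 antimicrobial effectors and 0.00 (0.0039) for 67 C-type lectins, with clec-63 at 0.07 ± 0.14 and the saposin gene spp-5 at −0.03 ± 0.10. For 19 lysosomal proteases the median was −0.04, and the cathepsin gene cpl-1 differed by 0.05 ± 0.20. For 85 neuropeptide genes the median was 0.03 at 1 g/L, 0.11 at 2 g/L and 0.35 at 4 g/L. The hedgehog-related genes (21, median 0.02), the moulting genes (13, median 0.01) and the glyoxylate cycle and gluconeogenesis genes (13, median −0.05) were likewise uncalled.

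The protein-making and proton-pumping machinery was close to 0. The median was 0.03 for 72 ribosomal protein genes, of which 49 were above 0, and 0.03 for 21 vacuolar ATPase subunits, of which 14 were above 0. Of the vacuolar ATPase genes, vha-2 differed by 0.50 ± 0.18 without a call (limma adjusted p = 1). Its values were 380, 935, 361 and 381 at 1 g/L, against 363, 343, 310 and 317 in the control. Most of this difference thus came from replicate 2 at 1 g/L, and the groups overlapped. The medians of the tissue lists were 0.06 for 21 body wall muscle markers, 0.05 for 8 pharyngeal muscle markers, 0.02 for 19 neuron markers and 0.09 for 11 hypodermis and seam markers. Of the hypodermis and seam markers 10 of 11 were above 0, and by library their median was 0.01, 0.02, −0.05 and 0.54 at 1 g/L and 0.06, −0.17, −0.04 and −0.02 in the control, so that the highest value stood in 1 exposed well, replicate 4.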
